A study of Mus musculus with 32 samples.

Results

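The genes described are the Wnt ligands, the proteins that secrete and receive them, their secreted inhibitors, the R-spondin arm and the core intracellular and nuclear steps of the pathway. They were picked by name from the gene families of the pathway, without use of any measured value, and 50 of the 11818 genes in the count table met the rule. The 50 were 7 ligands, 2 genes of ligand secretion, 13 receptors, 2 secreted inhibitors, 6 genes of the R-spondin arm, 10 intracellular genes and 10 nuclear genes. Roles were set by gene name, so that Dkk3 is grouped as a secreted inhibitor by its family, and its action on Wnt signals was not tested. The same rule matched 79 mouse genes in the RefSeq annotation, and the 29 that had no row in the table, among them Axin2, Wnt3a and Dkk1, were not analysed here.

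Wnt proteins are lipid-modified secreted ligands that bind Frizzled receptors with the co-receptors Lrp5 and Lrp6. In the canonical branch this halts the breakdown of β-catenin (Ctnnb1), which then acts with the Tcf/Lef factors in the nucleus, whereas other ligands such as Wnt5a signal through Ror and Ryk receptors. R-spondins bind Lgr receptors and keep the ligases Rnf43 and Znrf3 from removing Frizzled, so they amplify the signal. In the lung, Wnt signals pass between fibroblasts and the epithelium, and they are known to maintain alveolar type 2 cells, the progenitors of the alveolus.

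The study asked how products of lung fibroblasts change epithelial progenitors that are grown with fibroblasts. Epcam+ lung cells (cells carrying the epithelial surface protein Epcam) of 4 C57BL/6J mice aged 8 to 14 weeks were mixed in equal number with CCL206, a line of mouse lung fibroblasts that mitomycin C had kept from dividing, and grown in Matrigel. The cultures received vehicle, osteoglycin (OGN, a secreted proteoglycan) at 10 µg/mL, extracellular vesicles (EVs) at 1000000000 particles per mL or soluble factors (SFs) at 30 µg/mL for 72 h, and were then separated with Epcam beads into an Epcam+ and a CCL206 fraction. EVs and SFs came from MRC5 cells, a human lung fibroblast line. Each of the 8 groups had 4 libraries, 1 for each mouse, and both fractions of a mouse and treatment came from the same culture. All groups share the co-culture, the Matrigel and the fibroblast line, so that the 4 CCL206 libraries of a group are 1 line cultured with the cells of 4 mice, and every comparison with vehicle in a fraction uses the same 4 vehicle libraries.

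Library totals ran from 1805914 to 17675454 counts in the Epcam+ fraction and from 3105312 to 16103497 in the CCL206 fraction. Most markers went with the labels, with all 6 epithelial markers called higher and 11 of 12 fibroblast markers called lower in vehicle Epcam+ than in vehicle CCL206 libraries. The remaining fibroblast marker, Fbln1, went the other way, at a mean of 27.0 CPM in vehicle Epcam+ and 2.73 CPM in vehicle CCL206 libraries. DESeq2 called this difference, and Fbln1 was kept among the 12. Each fraction held some RNA of the other: over 6 epithelial markers, the median gene of vehicle CCL206 libraries stood at 5.60% ± 2.15 (SD, n = 4) of its level in the Epcam+ library of the same culture, and over 12 fibroblast markers the median gene of vehicle Epcam+ libraries stood at 20.8% ± 3.83 of its CCL206 level. The 10 alveolar type 2 (AT2) markers summed to a median of 12802 CPM in vehicle Epcam+ and 3111 CPM in vehicle CCL206 libraries. Of the marker lists for other cells, 3 of 9 leukocyte, 1 of 6 endothelial and 1 of 3 mesothelial genes had a row, and Ptprc, Pecam1 and Wt1 were not analysed here. The EV-treated CCL206 libraries of mice 2 and 4 stood apart from the others in a trend of gene level with transcript length, so the counts for EVs in CCL206 cells, and the values described there in full, are also given without them. Levels are CPM (counts scaled to library size) with factors from the trimmed mean of M values (TMM). Differences are log2 fold changes with standard errors (SE), tested with edgeR's quasi-likelihood test across all genes with the mouse as a block, and a gene was called where its Benjamini-Hochberg adjusted p was under 0.05.

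In vehicle cultures the pathway was split between the fractions by gene rather than as a whole. The epithelial fraction carried more of the ligands Wnt7b, Wnt4 and Wnt7a, and the fibroblast fraction carried more Wnt5a, Wnt6, Rspo2, Rspo3 and both genes grouped as secreted inhibitors. Of the 50 genes, 35 were called, 18 higher and 17 lower in the Epcam+ fraction, a share of 70.0% beside 71.4% of all 11749 genes tested, so the share of called genes was near the background. The median log2 difference of the 50 genes was -0.001, against -0.0003 for all genes. Since these are bulk libraries, fewer cells of a type and less RNA per cell cannot be told apart in this or any later comparison.

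Wnt7b, a ligand of lung epithelium, had the highest level per kilobase of the 7 ligands in the Epcam+ fraction, 26.9 ± 2.71 CPM per kilobase of its longest transcript (SD, n = 4), against 0.576 ± 0.305 in CCL206 libraries, a log2 difference of 5.49 (SE 0.22, adjusted p = 6.4e-09). Wnt4 followed at 8.02 ± 2.20 against 0.123 ± 0.0694 CPM per kilobase, a log2 difference of 5.92 (SE 0.27, adjusted p = 1.3e-08), and Wnt7a stood at 6.55 ± 1.36 against 0.511 ± 0.326. The Wnt4 and Wnt7a levels overlapped between libraries of the Epcam+ fraction, whereas Wnt7b was above both in every library. In the CCL206 fraction the order was led by Wnt5a, the main ligand of the β-catenin-independent branch, at 10.5 ± 0.652 CPM per kilobase against 3.11 ± 0.509 in the Epcam+ fraction, a log2 difference of -1.76 (SE 0.11). Wnt10a (3.78) and Wnt6 (3.70) came next as mean CPM per kilobase and did not differ beyond their spread.

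**Figure D1:**
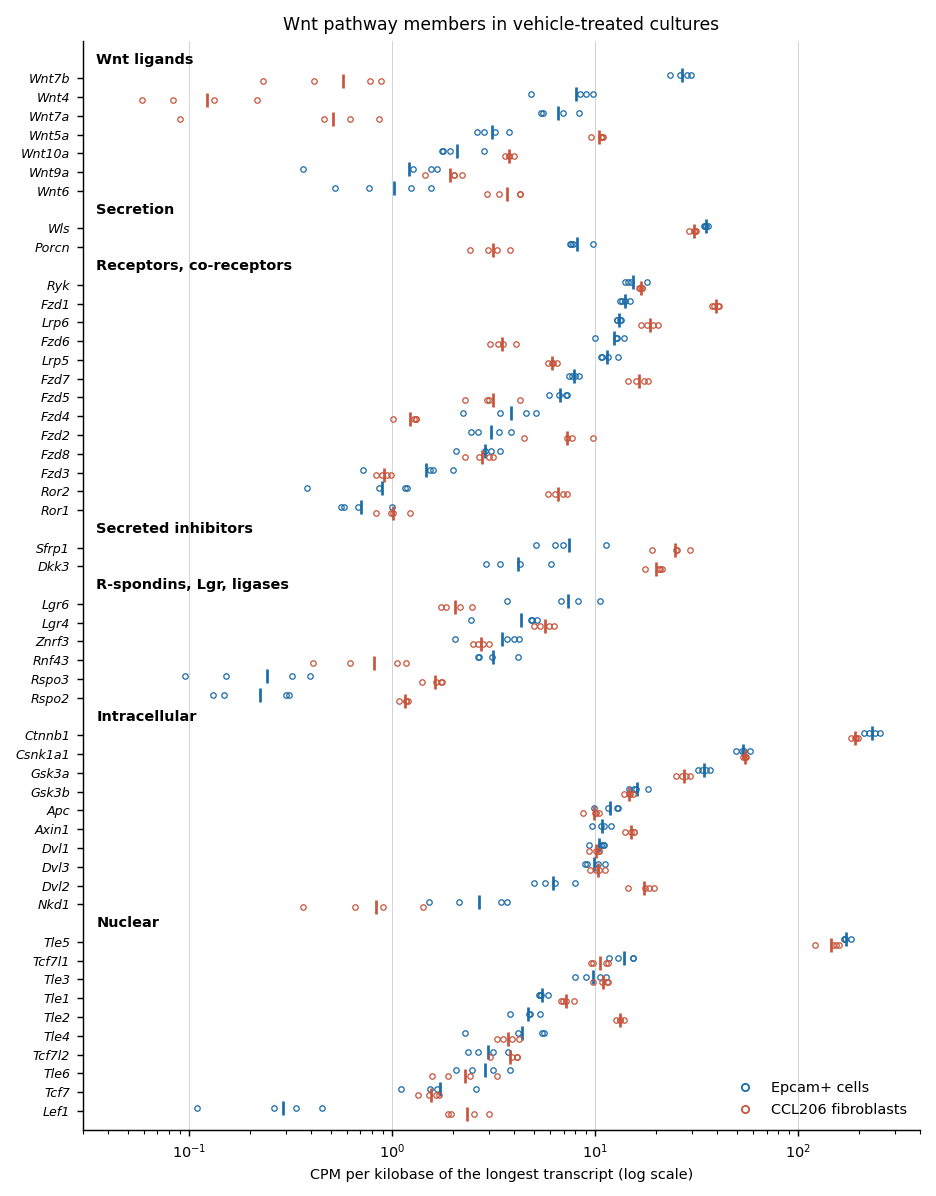
Level of each of the 50 genes in vehicle libraries, in CPM per kilobase of the longest transcript on a log axis, with 1 circle per library, the mean as a short bar and genes grouped by role, for Epcam+ and CCL206 fractions (n = 4 each). Wnt7b at a mean of 26.9 against 0.576 and Wnt4 at 8.02 against 0.123 show the widest gaps between the fractions.

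Both genes of ligand release were called higher in the Epcam+ fraction. Wls, which carries lipid-modified Wnt proteins to the cell surface, was close in both fractions, at 35.1 ± 0.785 and 30.6 ± 1.13 CPM per kilobase. Porcn, the acyltransferase that adds the lipid, stood at 8.16 ± 1.05 and 3.13 ± 0.60. Among the 13 receptors, 5 were higher and 5 lower in the Epcam+ fraction. Fzd6 (log2 difference 1.81, SE 0.13) and Fzd4 (1.60, SE 0.21) were Frizzled receptors on the epithelial side, and Ror2, a receptor of Wnt5a, was on the fibroblast side at -2.81 (SE 0.24). The receptor with the highest level per kilobase was Ryk in the Epcam+ fraction (15.4 ± 1.81) and Fzd1 in the CCL206 fraction (39.3 ± 1.39), although with the median transcript length in place of the longest it was Lrp6 in CCL206 libraries.

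Both genes grouped as secreted inhibitors lay on the fibroblast side. Sfrp1, which binds Wnt proteins outside the cell, stood at 24.7 ± 4.13 CPM per kilobase in CCL206 and 7.45 ± 2.70 in Epcam+ libraries, a log2 difference of -1.78 (SE 0.11). Dkk3, a secreted glycoprotein of the Dickkopf family, stood at 20.1 ± 1.67 and 4.17 ± 1.40, a log2 difference of -2.28 (SE 0.15). The Epcam+ level of Dkk3 was 20.8% ± 6.79 of its CCL206 level in the same culture, beside the 20.8% of the median fibroblast marker, and the part of fibroblast RNA in the Epcam+ level was not tested. Wnt5a in Epcam+ libraries, at 29.7% of its CCL206 level, and Sfrp1, at 29.6%,, are given beside the same marker share.

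Within the R-spondin arm the receptor Lgr6 and the ligase Rnf43 were higher in the Epcam+ fraction, with log2 differences of 1.76 (SE 0.19) and 2.02 (SE 0.27). The ligands Rspo3 (-2.67, SE 0.41) and Rspo2 (-2.51, SE 0.30) were higher in CCL206 libraries. Lgr4, the other R-spondin receptor in the table, stood at 4.34 ± 1.27 CPM per kilobase in Epcam+ and 5.65 ± 0.553 in CCL206 libraries and was not called. Of the intracellular genes, Nkd1, an antagonist that binds Dishevelled, was higher in the Epcam+ fraction at 1.70 (SE 0.33), and of the nuclear genes Lef1, a DNA-binding partner of β-catenin, was lower at -2.93 (SE 0.41). Ctnnb1 itself had the highest level per kilobase of all 50 genes in both fractions, 231.7 ± 17.97 in Epcam+ and 191.2 ± 6.22 in CCL206 libraries, followed by Tle5, a short member of the Groucho corepressor family, at 172.6 ± 6.48 and 145.7 ± 16.7.

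Promoter sequence was matched in RefSeq (GRCm38.p6) for 31 of the 50 genes. The sequences shown are from Lgr6 and Wls, which fell in Epcam+ cells with OGN, and from Fzd7 and Lef1, where a Tcf/Lef motif was found. Each is the stretch from 250 to 101 bases before a RefSeq start, 5′ to 3′ on the gene's strand, with a motif match in capitals. For Lef1 that start lies inside the gene, and the 3 windows at its other starts held no match.
Lgr6 (minus strand, chr1:135105377-135105526): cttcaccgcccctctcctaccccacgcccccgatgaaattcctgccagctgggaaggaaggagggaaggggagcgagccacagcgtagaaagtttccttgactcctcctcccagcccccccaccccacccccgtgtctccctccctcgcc
Wls (plus strand, chr3:159839400-159839549): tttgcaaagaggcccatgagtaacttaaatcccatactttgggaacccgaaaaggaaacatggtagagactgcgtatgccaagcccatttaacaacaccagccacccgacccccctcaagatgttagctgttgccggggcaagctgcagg
Fzd7 (plus strand, chr1:59481897-59482046): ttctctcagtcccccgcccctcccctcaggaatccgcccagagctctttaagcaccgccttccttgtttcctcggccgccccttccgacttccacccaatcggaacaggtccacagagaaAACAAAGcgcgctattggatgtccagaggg
Lef1 (plus strand, chr3:131156044-131156193): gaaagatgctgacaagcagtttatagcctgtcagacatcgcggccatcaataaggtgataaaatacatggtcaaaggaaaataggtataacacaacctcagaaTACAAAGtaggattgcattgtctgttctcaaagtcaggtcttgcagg

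The motif searched was the Tcf/Lef core in 4 forms, written CTTTGAA for the first, CTTTGAT for the second, CTTTGTA for the third and CTTTGTT for the fourth, on both strands, in the 250 bases before each start. These forms share their first letters and are read as 1 motif. It was present at 4 of the 31 genes (12.9%), beside 4527 of 27025 genes with a promoter (16.8%), and in 4 of their 40 windows (10.0%), beside 14.8% of all windows. The matches were AACAAAG for Fzd7, TACAAAG for Lef1, TTCAAAG for Gsk3a and CTTTGTT for Tcf7l2, starting 130, 147, 158 and 14 bases before a RefSeq start. The Tcf7l2 start is also inside the gene, and its other window held no match. Lgr6 and Wls had no match in this window.

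With OGN the Epcam+ fraction showed lower levels of the R-spondin receptor Lgr6, the Wnt carrier Wls, and Dkk3 and Sfrp1, the genes grouped as secreted inhibitors. These 4 of 50 genes were the calls, all lower, a share of 8.0% beside 2.7% of the 11716 genes tested (1.22% called lower). DESeq2 added Rspo3 and Wnt10a, beside 3.95% of all genes by DESeq2. Of the 50 log2 differences, 15 were above 0 and 35 below, with a median of -0.10 against -0.003 for all genes. The edgeR test called no ligand, receptor, intracellular or nuclear gene here, and the ligand among the DESeq2 calls was Wnt10a.

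Lgr6 (chr1:134983300-135105374 on GRCm38.p6) stood at 55.7, 71.4, 46.1 and 24.8 CPM in the vehicle libraries of mice 1 to 4 and at 19.2, 26.4, 23.6 and 16.7 CPM with OGN. It was lower with OGN in 4 of 4 mice, although the groups overlapped because the vehicle library of mouse 4 was low. The log2 difference was -1.16 (SE 0.14, adjusted p = 1e-05), and it was called under all 10 alternatives tried. The airway and basal cell markers moved with it. Of 6 listed, 5 had a row, and Krt5, Krt15 and Scgb1a1 were called lower while Foxj1 and Trp63 were not, with a summed level of 2609 to 4215 CPM in vehicle and 1353 to 2807 CPM in OGN libraries. The part of airway cells in the Lgr6 difference was not tested.

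Wls (chr3:159839650-159938666) had a narrow spread, at 197.5, 190.1, 193.9 and 187.7 CPM in vehicle libraries and 151.7, 142.7, 153.7 and 131.3 CPM with OGN. The groups did not overlap, every mouse was lower, and the log2 difference was -0.41 (SE 0.07, adjusted p = 0.0012). Like Lgr6, it was called under all 10 alternatives. Porcn, the other gene of ligand release, was not called.

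Dkk3 (chr7:112116019-112159482) stood at 25.9, 20.6, 17.6 and 36.8 CPM in vehicle libraries and within 13.4 to 14.9 CPM in all 4 OGN libraries. The groups did not overlap, and the log2 difference was -0.80 (SE 0.17, adjusted p = 0.0109). The call was lost without mouse 1 (adjusted p = 0.111), without mouse 4 (0.104) and with a fit of the 8 compared libraries alone (0.0607). Sfrp1 (chr8:23411383-23449632) stood at 23.8, 32.5, 29.7 and 52.7 CPM in vehicle and 21.7, 17.9, 24.1 and 23.7 CPM in OGN libraries, which overlapped because mouse 3 with OGN was just above mouse 1 with vehicle. Its log2 difference was -0.60 (SE 0.16, adjusted p = 0.0379), lost without the mouse block (0.135), without mouse 2 (0.183), mouse 3 (0.0865) or mouse 4 (0.257), and in the fit of the 8 libraries alone (0.146).

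Fibroblast markers were read for fibroblast RNA in these libraries, although some of them also differed with OGN in the CCL206 fraction itself. There DESeq2 called 3 of the 12. Dcn went from a mean of 553 to 1461 CPM, Lum from 84.6 to 162 CPM and Col6a2 from 113 to 82.5 CPM. The summed level of the 12 markers was 2736 to 3889 CPM in vehicle and 2458 to 3123 CPM in OGN libraries of the Epcam+ fraction. Of the 12, edgeR called Dcn higher there and Col6a1 and Col6a2 lower. DESeq2 called these and also Lum, at means of 19.2 CPM with vehicle and 28.2 CPM with OGN in Epcam+ libraries. Dkk3 with OGN was at 21.7% ± 1.15 of its CCL206 level in the same culture, beside 18.7% ± 2.67 for the median fibroblast marker. How far fibroblast RNA sets the Dkk3 and Sfrp1 differences in Epcam+ libraries was not tested. Of the 3 listed leukocyte markers with a row, Cd14 and Lyz2 were called higher with OGN in both fractions, and DESeq2 did not call Cd68. Its mean was 3.70 CPM with vehicle and 5.76 CPM with OGN in Epcam+ libraries, and 5.31 and 6.25 CPM in CCL206 libraries. Whether leukocytes differed was not tested.

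Wnt10a and Fzd7 were not called by edgeR, though their OGN and vehicle groups did not overlap. They were singled out after their values were seen, and the share of all genes without overlap was not counted. Wnt10a was at 6.56 to 10.6 CPM in vehicle and 2.99 to 5.40 CPM in OGN libraries (log2 difference -0.92, SE 0.29, adjusted p = 0.115), and the receptor Fzd7 was at 33.8 to 37.9 and 25.02 to 30.2 CPM (-0.35, SE 0.11, adjusted p = 0.124). Rspo3 gave the largest fitted difference upward, 1.74 (SE 0.50, adjusted p = 0.0694), from 2 to 23 counts in vehicle libraries. Its groups overlapped, since mouse 4 with OGN was below mouse 1 with vehicle. Rspo3 had means of 1.02 CPM with vehicle and 3.27 CPM with OGN here, beside 6.92 and 15.8 CPM in CCL206 libraries. The part of fibroblast RNA in this Rspo3 difference was not tested.

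**Figure D2:**
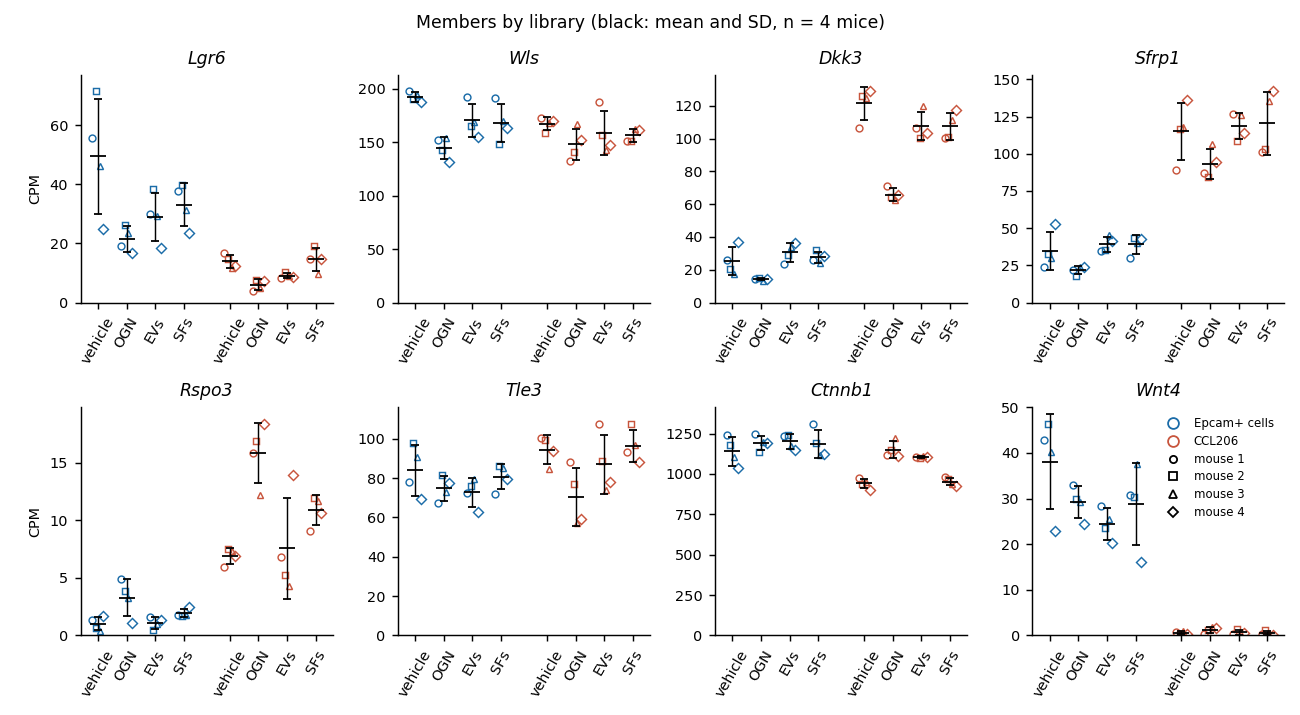
CPM in each library for 8 genes called in a comparison with vehicle, by fraction and treatment, with 1 symbol per mouse, and the mean and SD (n = 4) in black. Lgr6 with OGN lies at 16.7 to 26.4 CPM in Epcam+ libraries against 24.8 to 71.4 in vehicle, and at 3.85 to 7.72 CPM in CCL206 libraries against 11.8 to 16.7.

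In the CCL206 fraction Dkk3, Lgr6 and the corepressor Tle3 fell with OGN, while the ligand Rspo3 and, by a smaller amount, Ctnnb1 rose. These were 5 of 49 genes tested (Wnt4 did not pass the filter on low counts), 3 lower and 2 higher, a share of 10.2% beside 4.56% of all 11689 genes. DESeq2 called 7, adding Tcf7l2 and Wnt7b, beside 7.28% of all genes by DESeq2. The median log2 difference of the 49 genes was -0.04, against -0.01 for all genes.

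Dkk3 in CCL206 libraries stood at 106.5, 126.2, 124.5 and 128.7 CPM with vehicle and at 71.2, 64.1, 62.3 and 65.9 CPM with OGN. The groups were far apart for their spread, with a log2 difference of -0.89 (SE 0.10, adjusted p = 2.3e-05). Lgr6 was at 16.7, 14.6, 11.8 and 12.5 CPM with vehicle and 3.85, 7.72, 5.05 and 7.42 CPM with OGN, without overlap, and differed by -1.19 (SE 0.21, adjusted p = 0.0019). Both genes were called under all 11 alternatives, and both had been called lower in the Epcam+ fraction. Lgr6 in CCL206 libraries was 31.6% of its Epcam+ level in vehicle and 28.8% in OGN cultures, against 5.60% and 7.66% for the median epithelial marker. The 10 AT2 markers summed to a median of 3111 CPM in CCL206 against 12802 CPM in Epcam+ libraries with vehicle, and 3026 against 12885 CPM with OGN. The part of epithelial RNA in the Lgr6 values of CCL206 libraries was not tested.

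Rspo3 (chr10:29453106-29535867), the R-spondin ligand, stood at 5.92, 7.50, 7.35 and 6.93 CPM with vehicle and at 15.9, 16.9, 12.2 and 18.4 CPM with OGN. All OGN libraries were above all vehicle libraries, with a log2 difference of 1.17 (SE 0.24, adjusted p = 0.0086), and the call was lost without mouse 1 (0.0765) or mouse 2 (0.0912). Ctnnb1 (chr9:120933400-120960507) was at 901.2 to 974.4 CPM with vehicle and 1112 to 1225 CPM with OGN, also without overlap. Its log2 difference was 0.29 (SE 0.08, adjusted p = 0.0475), and leaving out any mouse lost the call, with adjusted p from 0.0787 without mouse 1 to 0.32 without mouse 2 (0.26 without mouse 3 and 0.173 without mouse 4).

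Tle3 (chr9:61372326-61418497) stood at 100.5, 99.4, 84.6 and 93.6 CPM with vehicle and 88.2, 77.1, 56.97 and 59.2 CPM with OGN, lower in 4 of 4 mice but with overlapping groups. Its log2 difference was -0.45 (SE 0.11, adjusted p = 0.0229), lost without the mouse block (0.0925) and without mouse 2 (0.151), mouse 3 (0.169) or mouse 4 (0.155). Tcf7l2, a DNA-binding partner of β-catenin, just missed the edgeR threshold at -0.71 (SE 0.20, adjusted p = 0.0508) and was called by DESeq2. It stood at 12.8 to 17.3 CPM in vehicle and 8.90 to 9.93 CPM in OGN libraries. Wnt5a, the leading ligand of these cells, differed by -0.18 (adjusted p = 0.61).

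Leaving out a mouse lowered the count to 2 or 3 genes, beside 2.02% to 3.51% of all genes, whereas leaving out EV-treated libraries raised it. With a fit of the 8 compared libraries alone, 10 genes were called, beside 11.7% of all genes, and without the EV-treated libraries of mice 2 and 4, 11 genes were called, beside 13.8% of all genes. Wnt7b was among them at a log2 difference of 1.21 (edgeR adjusted p = 0.027 without those libraries, 0.0392 with the 8 alone and 0.0900 with all), from 30, 6, 30 and 15 counts with vehicle and 17, 54, 130 and 24 counts with OGN. With all libraries, DESeq2 called Wnt7b. Its level in CCL206 libraries was 2.15% ± 1.10 of the Epcam+ level in vehicle and 4.73% ± 1.90 in OGN cultures, beside 5.60% and 7.66% for the median epithelial marker. Summed over 6 epithelial markers, CCL206 libraries held 200.9 to 510.0 CPM with vehicle and 336.0 to 646.3 CPM with OGN. Of the 6, 0 were called by edgeR or DESeq2. At an unadjusted p under 0.05 were 2 of the 6, and the share of all genes at that level is not given here. Both tests called 2 of 10 AT2 markers, Sftpa1 and Sftpd, higher, beside 4.56% of all genes by edgeR and 7.28% by DESeq2. All 10 AT2 markers together summed to 1876 to 4841 CPM with vehicle and 2140 to 4272 CPM with OGN in CCL206 libraries. Sftpa1 and Sftpd were also higher with OGN in Epcam+ libraries, at means of 1709 against 1271 CPM and 1842 against 1331 CPM. The part of epithelial RNA in the Wnt7b values was not tested.

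With EVs the Epcam+ fraction held less Lgr6 and Wnt4, which were 2 of 50 genes called, beside 0.888% of all genes (0.35% called lower). Lgr6 was at 30.1, 38.4, 29.1 and 18.4 CPM with EVs against 24.8 to 71.4 CPM with vehicle, a log2 difference of -0.77 (SE 0.13, adjusted p = 0.0046). Wnt4 (chr4:137277635-137299501) was at 42.9, 46.3, 40.2 and 22.9 CPM with vehicle and 28.5, 23.5, 25.6 and 20.3 CPM with EVs, a log2 difference of -0.62 (SE 0.14, adjusted p = 0.0395). Both were lower in 4 of 4 mice, and both overlapped with vehicle through the low vehicle library of mouse 4. Without the mouse block neither was called (adjusted p = 0.227 for Lgr6 and 0.274 for Wnt4), and each was lost without mouse 1 (0.107 and 0.276), mouse 2 (0.0545 and 0.212) or mouse 3 (0.0873 and 0.281).

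Krt5, Krt15 and Scgb1a1 were called lower with EVs as well, with airway and basal markers summing to 1498 to 2669 CPM against 2609 to 4215 CPM with vehicle, and their part in the Lgr6 and Wnt4 values was not tested. Lef1 was not called at a log2 difference of 1.54 (SE 0.46, adjusted p = 0.14), though its 2.74 to 3.82 CPM with EVs lay above the 0.40 to 1.67 CPM with vehicle. Fibroblast markers summed to 3878 to 4510 CPM in these EV libraries, and 5 of 12 were called higher.

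SFs gave 0 of 50 calls in the Epcam+ fraction by edgeR, beside 0.23% of all genes, and 1 call by DESeq2, Lgr6, beside 0.448%. By edgeR 4 genes were at an unadjusted p under 0.05 (7.79% of all genes). The 4 were Lgr6, Wnt4 and Wls, with lower values, and Apc, a scaffold of the complex that destroys β-catenin, with a higher value. Lgr6 stood at 37.8, 39.8, 31.4 and 23.7 CPM, between the vehicle and OGN libraries of each mouse, with a log2 difference of -0.53 (SE 0.13, adjusted p = 0.153). Krt5, Krt15 and Scgb1a1 were called lower here too. In the CCL206 fraction SFs gave 0 of 49 calls by edgeR and 0 by DESeq2, beside 0.0599% of all genes, with Wnt7b, Rspo3 and Rnf43 at an unadjusted p under 0.05 (5.31% of all genes). Wnt7b there rested on 4, 5, 3 and 2 counts (log2 difference -1.68, SE 0.51, adjusted p = 0.57).

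Of the comparisons with vehicle, EVs in the CCL206 fraction gave the largest number of called pathway genes, and the background was high as well. The receptors Fzd3, Fzd5, Fzd6, Fzd7, Lrp6 and Ror1, the ligand Wnt5a, the R-spondin arm genes Rspo2, Znrf3 and Lgr6, and the destruction complex genes Apc and Gsk3b were lower, and Ryk, Ctnnb1 and Wnt6 were higher. These 15 of 49 calls (30.6%) compare with 36.0% of all 11689 genes, so the share was under the background. Without the EV-treated libraries of mice 2 and 4, 2 of the 15 were called, Apc and Znrf3, beside 5.48% of all genes.

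Apc stood at 136.1, 113.3, 129.5 and 131.5 CPM with vehicle and 115.9, 44.7, 76.6 and 28.5 CPM with EVs, and the libraries of mice 2 and 4 were the lowest. Its log2 difference was -1.0, and that of Znrf3, a ligase that removes Frizzled, was -0.89 (-0.45 and -0.70 without the libraries of mice 2 and 4), with 17.96, 19.3, 16.9 and 16.1 CPM against 12.6, 13.3, 9.92 and 3.07 CPM. Ryk was highest in the same pair of libraries, at 148.9, 209.5, 147.3 and 207.3 CPM against 123.3 to 128.0 CPM with vehicle (log2 difference 0.49, or 0.22 without that pair). Wnt5a (chr14:28504543-28527448) stood at 77.3, 78.8, 68.7 and 77.9 CPM with vehicle and 68.3, 54.7, 65.7 and 40.2 CPM with EVs, a log2 difference of -0.40, or -0.16 without the libraries of mice 2 and 4. Of the 15 genes, 12 had the same sign in all 4 EV-treated libraries. The 15 were called from these same libraries, so this agreement is no separate evidence, and the share over all genes was not counted.

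The differences went with transcript length. Genes called lower had a median longest transcript of 7080.5 nt and genes called higher 4921 nt, against 4949 nt for the pathway genes and 4412 nt for all genes in the table with a length. Across the 49 genes, which share the same libraries and are not replicates, Spearman's rho of log2 difference with length was -0.43, and across 11561 genes it was -0.56. The EV-treated libraries of mice 1 to 4 gave -0.29, -0.54, -0.34 and -0.57 on their own. With the length trend taken out, 11 pathway genes were called, and 6 of the 15 remained (Apc, Ctnnb1, Fzd6, Fzd7, Ryk and Znrf3), beside 26.1% of all genes. Lrp6, a long transcript, went from -0.45 to 0.04 (adjusted p = 0.753), and stood at -0.09 without the libraries of mice 2 and 4.

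**Figure D3:**
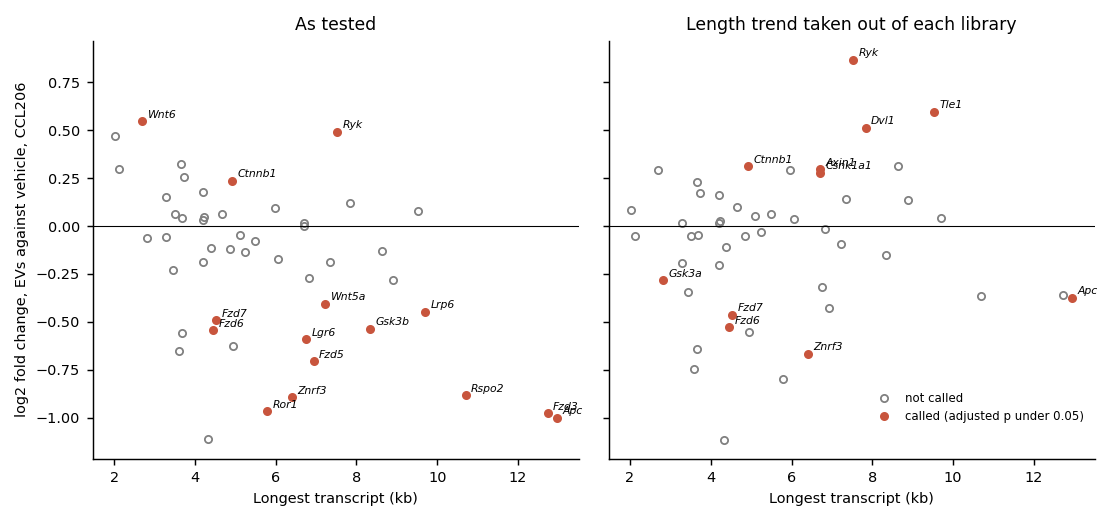
Log2 difference of each pathway gene with EVs against vehicle in CCL206 cells (49 genes) plotted against its longest transcript in kb, as tested (left) and with the length trend taken out of each library (right), with called genes filled and named. On the left Spearman's rho is -0.43, and the 12 genes called lower have a median length of 7080.5 nt.

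Set directly against the other treatments in the Epcam+ fraction, OGN gave lower levels of both genes grouped as secreted inhibitors. Against EVs, Dkk3 differed by -1.07 (adjusted p = 0.00055), Sfrp1 by -0.82 (adjusted p = 0.0030) and Wnt5a by -0.65 (adjusted p = 0.028), which were 3 of 50 calls beside 2.22% of all genes (1.55% called lower). Dkk3 was called under all 10 alternatives, Sfrp1 was lost without mouse 3 (0.0552), and Wnt5a was lost without the mouse block (0.0626), mouse 1 (0.141), mouse 3 (0.215) or mouse 4 (0.075). EV-treated Epcam+ libraries held more fibroblast markers than OGN-treated ones, as given above.

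Against SFs, the 3 calls, beside 1.91% of all genes (1.09% called lower), were Dkk3 (-0.91, adjusted p = 0.0066), Sfrp1 (-0.79, adjusted p = 0.0086) and Lgr6 (-0.63, adjusted p = 0.0188). Dkk3 was lost without mouse 1 (0.0523). Without the mouse block Sfrp1 (0.0598) and Lgr6 (0.356) were lost. Leaving out mouse 2 or 3 also lost Sfrp1 (0.0703 and 0.0653), and leaving out mouse 1, 2 or 3 lost Lgr6 (0.232, 0.0615 and 0.0827). The fibroblast markers of SF-treated Epcam+ libraries were at 24.6% ± 3.2 of their CCL206 level by the median gene.

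In the CCL206 fraction OGN differed from SFs in 4 of 49 genes, beside 2.79% of all genes. Dkk3 was lower by OGN at -0.71 (adjusted p = 0.00073), as were Lgr6 at -1.24 (adjusted p = 0.0036) and Tle3 at -0.48 (adjusted p = 0.024). Wnt7b was higher at 2.90 (SE 0.48, adjusted p = 0.0028), from 3.02 to 8.01 CPM against 0.34 to 0.95 CPM, without overlap. The call of Wnt7b was lost without mouse 3 (0.0831), that of Lgr6 without mouse 2 (0.0763) and that of Tle3 without the mouse block (0.104), mouse 2 (0.205), mouse 3 (0.309) or mouse 4 (0.121). The 6 epithelial markers had a median log2 difference of 0.73 in this comparison. Of them, 0 were called by edgeR, beside 2.79% of all genes, and 2 by DESeq2 (Cdh1 and Krt18), beside 5.15%. At an unadjusted p under 0.05 by edgeR were 4 of the 6, and the share of all genes at that level is not given here. Of the 10 AT2 markers, 3 were called higher by edgeR and 5 by DESeq2 (Ctsh, Lamp3, Sftpa1, Sftpb and Sftpd), beside the same shares of all genes. The part of epithelial RNA in this Wnt7b value was not tested. OGN against EVs gave 16 of 49 calls in CCL206 cells, beside 37.6% of all genes, and 8 without the EV-treated libraries of mice 2 and 4, beside 13.2% of all genes. Dkk3 (-0.72), Wnt7b (1.86) and Rspo3 (1.12) were among the 16, and stood at -0.81, 2.30 and 1.48 without those libraries.

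**Figure D4:**
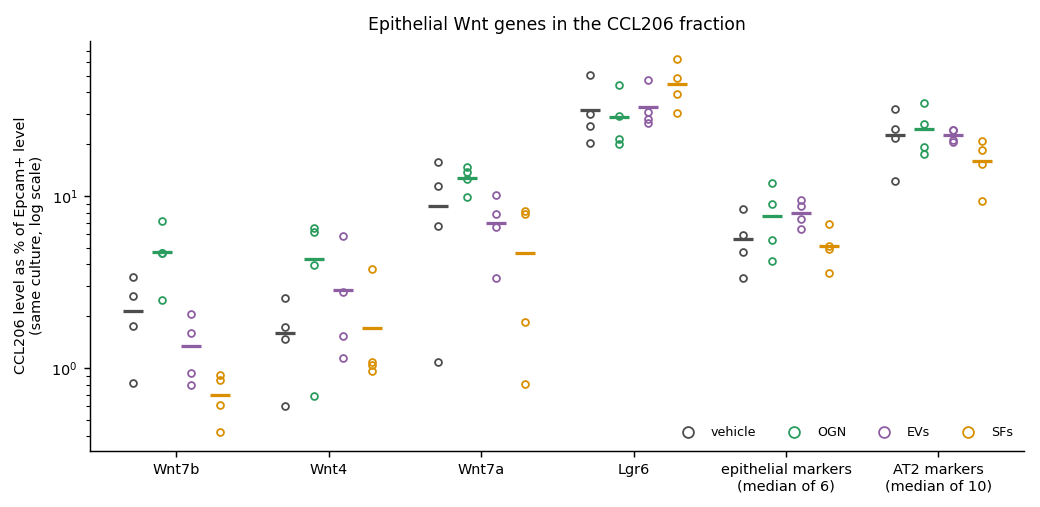
Level in the CCL206 fraction as a percentage of the level in the Epcam+ fraction of the same culture, on a log axis, with 1 circle per mouse and the mean as a bar, for Wnt7b, Wnt4, Wnt7a, Lgr6 and the medians of 6 epithelial and 10 alveolar type 2 (AT2) markers in each treatment. Wnt7b goes from 2.15% with vehicle to 4.73% with OGN and 0.696% with SFs on average, while the epithelial marker median goes from 5.60% to 7.66% and 5.12%.

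Whether a treatment acted differently in the 2 fractions was tested as an interaction, given here as the log2 difference in Epcam+ minus that in CCL206 libraries. For OGN it was called in 0 of 50 genes by edgeR, beside 0.551% of all genes, and in 2 by DESeq2 (Ctnnb1 and Wnt7b), beside 1.22%. By edgeR 5 genes were at an unadjusted p under 0.05 (6.89% of all genes). The smallest p was that of Wnt7b at -1.17 (SE 0.29, adjusted p = 0.0611). Lgr6 and Dkk3, called lower in both fractions, were not among the 5. For SFs 0 genes were called by edgeR and 0 by DESeq2, beside 0.0% of all genes, with 3 at an unadjusted p under 0.05 (5.0% of all genes).

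For EVs, 6 of 50 interactions were called, beside 23.8% of all genes. They were Apc (0.97, SE 0.27, adjusted p = 0.0152), Wnt5a (0.77, SE 0.22, adjusted p = 0.0157), Ryk (-0.52, SE 0.16, adjusted p = 0.0221), Lef1 (1.52, SE 0.47, adjusted p = 0.0242), Znrf3 (0.86, SE 0.30, adjusted p = 0.0365) and Tle5 (-0.42, SE 0.15, adjusted p = 0.0441). None of the 6 was called without the EV-treated CCL206 libraries of mice 2 and 4 or without mouse 2 or mouse 4 as a whole. Wnt5a by library was at 24.6 to 33.8 CPM with EVs against 19.0 to 27.3 CPM with vehicle in Epcam+ cells, and at 40.2 to 68.3 CPM against 68.7 to 78.8 CPM in CCL206 cells. The Epcam+ level of Wnt5a was 51.0% ± 7.43 of the CCL206 level with EVs and 29.7% ± 4.22 with vehicle, beside 31.3% ± 4.87 and 20.8% ± 3.83 for the median fibroblast marker.

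**Figure D5:**
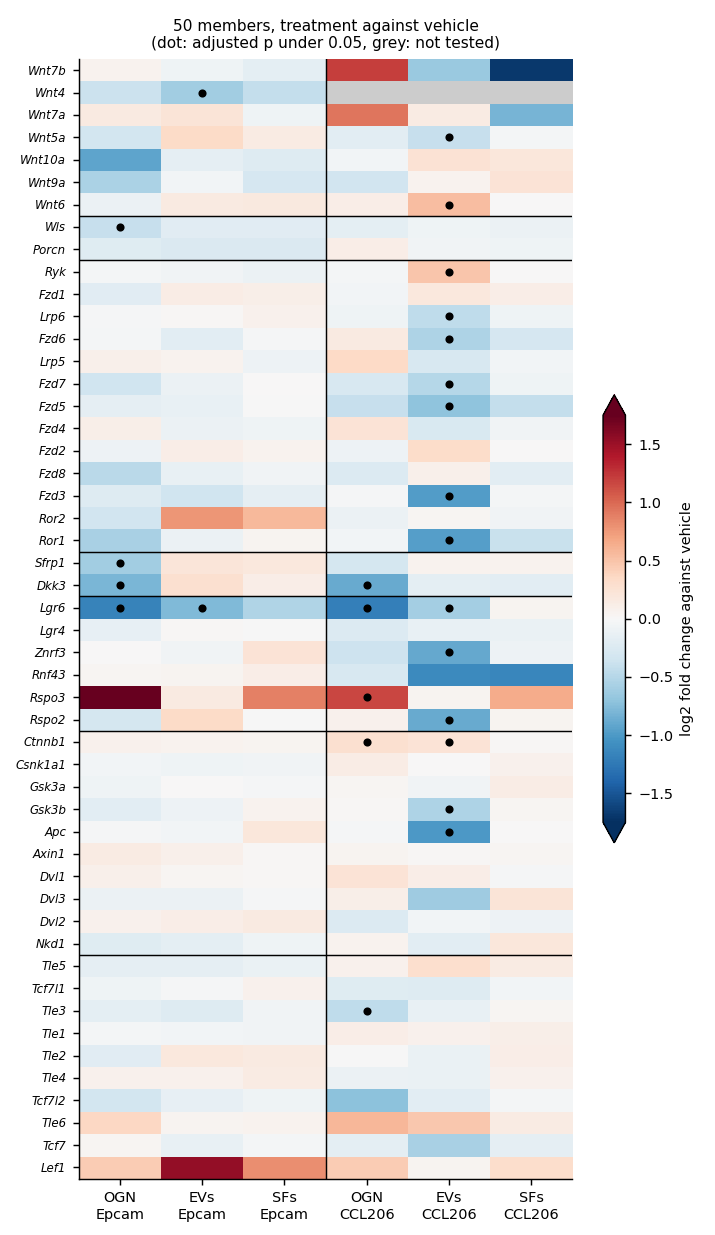
Log2 difference of each of the 50 genes, by role, for OGN, EVs and SFs against vehicle in each fraction, in colour, with a black dot on called genes and the untested gene (Wnt4 in CCL206) in grey. Lgr6 has its called values at -1.16 with OGN and -0.77 with EVs in Epcam+ cells, and at -1.19 and -0.59 in CCL206 cells.

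Other genes of the pathway were read from a list of 85 further components, 79 of them in the table, and from a list of 55 Wnt target genes, 36 of them in the table, 5 of which are also among the 50 genes. With OGN in Epcam+ cells edgeR called 0 of the 79 components and 3 of the 36 targets, all 3 higher, beside 2.7% of all genes. The 3 targets were Sp5, a transcription factor induced by β-catenin (1.30, SE 0.30, adjusted p = 0.018), Plaur, the urokinase receptor (0.42, SE 0.10, adjusted p = 0.0159), and Ptgs2, a cyclooxygenase (0.47, SE 0.12, adjusted p = 0.0365). DESeq2 called 1 component (Ctbp2) and 5 targets, adding Ephb2 and Ccn4, beside 3.95% of all genes by DESeq2. With EVs in Epcam+ cells 1 component, Nfatc4 (0.76), and 2 targets, Vegfa (0.47) and Fn1 (0.47), were higher. Fn1 is also a fibroblast gene, and fibroblast markers were higher in the same libraries.

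In CCL206 cells OGN gave calls in both directions among the targets. Ptgs2 (1.29, adjusted p = 7.9e-05) and Vegfa (0.53, adjusted p = 0.0082) were higher, whereas Myc (-0.78, adjusted p = 0.00053), the cyclin Ccnd1 (-0.45, adjusted p = 0.0061) and the secreted protein Ccn4 (-0.57, adjusted p = 0.0129) were lower. These were 5 of 36 targets by edgeR, beside 4.56% of all genes. DESeq2 called 8, adding Jag1, Plaur and Ppard, beside 7.28% of all genes by DESeq2. Of the components, edgeR called the proteoglycan Sdc1, at 0.48 (adjusted p = 0.0061), and DESeq2 called Sdc1, Sdc4 and Gpc4. EVs gave 14 higher and 24 lower calls among the components and 5 and 6 among the targets in CCL206 cells, beside the 36.0% of all genes, and 1 and 5 among the components and 1 and 1 among the targets without the libraries of mice 2 and 4. SFs gave 0 calls in both lists and both fractions by edgeR and by DESeq2. At an unadjusted p under 0.05 were 4 components and 5 targets in Epcam+ cells (7.79% of all genes) and 2 and 3 in CCL206 cells (5.31% of all genes). Myc and Sdc1 were also called in the interaction of OGN with the fraction, at 0.80 and -0.53.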

How the data were processed

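The authors deposited raw counts per gene for 32 libraries, without normalization. Trimmomatic (0.30) is named for trimming, and the aligner and counter are not given in the sources used here. The study's text names GRCm38 and the labels GRCm39, so positions and promoters come from RefSeq (GRCm38.p6), not from the counting. No gene in the table has a 0 in any library, so genes absent from a group are missing from it.

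Counts were tested with edgeR 4.0.16 in R 4.3.3 (TMM, filterByExpr, quasi-likelihood F test, Benjamini-Hochberg adjustment over all genes tested). Each fraction was fitted on its 16 libraries with treatment and the mouse given by the labels as a block, the vehicle fractions on 8 libraries, and interactions on all 32. Libraries of the same mouse deviated together (mean correlation 0.088 to 0.223, against -0.070 to -0.030 between mice). SE is the log2 difference over the square root of F. Levels per kilobase use GENCODE vM39 transcripts. The fits were tested on simulated data.

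Alternatives were DESeq2 1.42.0, no mouse block, RLE factors, no filter, each mouse left out, only the libraries compared, the length trend taken out, and the fit without 2 EV-treated CCL206 libraries. Named genes were those called against vehicle or in an interaction, the 8 largest differences each way between fractions, the highest of each role, the 5 smallest p among called genes of each further list, and Wnt5a and Wnt7b in CCL206 cells, while uncalled genes were singled out after their values were seen. The members and lists were chosen with earlier results of these data known.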

Additional observations from a re-analysis of the deposited data

Results flagged for a closer look

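In 5 of the 216 groups of 4 libraries examined (27 genes), a library stood apart by more than Dixon's critical value for 4 samples, and chance gives about 1 in 20 groups. Ctnnb1 was 1110.31 CPM in the EV-treated CCL206 library of mouse 3, with the others at 1101.4 to 1102.85, a narrow range. Wnt5a was 68.68 CPM in the vehicle CCL206 library of mouse 3, with the others at 77.35 to 78.84. In Epcam+ libraries, Lrp5 was 126.52 CPM with EVs in mouse 2 against 100.84 to 104.81, Wnt6 was 4.34 CPM in the same library against 2.35 to 2.64, and Tle5 was 386.9 CPM with vehicle in mouse 4 against 357.49 to 360.61.

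The EV difference was not the same in both fractions for 6 genes by the interaction test of edgeR, as the value in Epcam+ minus that in CCL206 libraries: Apc (0.97), Wnt5a (0.77), Ryk (-0.52), Lef1 (1.52), Znrf3 (0.86) and Tle5 (-0.42). The EV-treated CCL206 libraries of mice 2 and 4, which carry the strongest trend with transcript length, enter all 6 values. Without them the same values were smaller in size for all 6, at 0.41, 0.51, -0.27, 1.45, 0.64 and -0.37.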

How the results depend on the processing

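The numbers of called pathway genes changed when libraries were left out. Leaving out each mouse in turn gave, in Epcam+ cells, 3 calls in each case for OGN against vehicle (4 with all), 0 to 2 for EVs (2), 0 to 1 for SFs (0), 1 to 3 for OGN against EVs (3) and 1 to 3 for OGN against SFs (3). Of all genes, the same fits called 1.23% to 2.29%, 0.145% to 1.33%, 0.094% to 0.273%, 1.13% to 1.63% and 0.615% to 1.16%, in the same order. In CCL206 cells leaving out each mouse gave 2 to 3 for OGN (5), 0 to 12 for EVs (15), 1 to 16 for OGN against EVs (16) and 2 to 5 for OGN against SFs (4). Of all genes, these fits called 2.02% to 3.51%, 0.162% to 38.9%, 5.43% to 41.2% and 0.666% to 1.97%, so the background moved as well. Between the vehicle fractions leaving out each mouse gave 32 to 37 (35), and for the interactions 0 to 1 for OGN (0) and 0 to 8 for EVs (6). The shares of all genes were 64.5% to 68.7%, 0.136% to 0.398% and 2.21% to 25.2%. With no replicate block the count fell to 0 for EVs (0.0768% of all genes) and to 1 for OGN against SFs (0.632%) in Epcam+ cells. The calls it cost are named beside the results. With only the libraries compared, the counts were 2 for OGN and 1 for EVs in Epcam+ cells, 10, 0, 4 and 10 for OGN, EVs, OGN against EVs and OGN against SFs in CCL206 cells, and 0 for the EV interaction. The shares of all genes were 1.61%, 0.761%, 11.7%, 3.34%, 7.95%, 11.2% and 7.16%, in this order. Without the EV-treated libraries of mice 2 and 4 the counts were 11, 2, 8 and 9 in CCL206 cells, 1 for the OGN interaction and 0 for the EV interaction. Of all genes, 13.8%, 5.48%, 13.2%, 9.82%, 1.42% and 0.279% were called there. DESeq2 gave 1 for SFs in Epcam+ cells (0.448% of all genes), 7 for OGN against SFs in CCL206 cells (5.15%) and 2 for the OGN interaction (1.22%). Taking out the length trend gave 1 (Wnt7b) for that interaction, beside 0.898% of all genes. SFs in CCL206 cells and the SF interaction stayed at 0 in all alternatives. Of the single values, 618 kept their direction and side of the threshold, 217 lost the call, 3 gained it and 2 changed sign: Lrp6 with EVs in CCL206 cells, 0.042 with the length trend out, and Wnt5a with SFs in CCL206 cells, 0.051 without replicate 1 (-0.15 without replicate 3). The cause was not tested. Another scaling (RLE) moved the median of all genes by at most 0.0194 on the log2 scale. Genes with few counts, such as Wnt7b and Wnt4 in CCL206 cells, have the widest errors, and a change in them may not be detectable at this depth.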
